A study of Mus musculus with 4 samples.

Results

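Regions reported as peaks of FAIRE-seq, an assay of open chromatin, were described at the neighbouring genes Parva and Tead1 on mouse chromosome 7. They are the entries of the deposited peak list whose midpoint lay between 119000000 and 120100000 on the mm9 build, 9 of 3190 regions in all. The window was chosen because it held many regions of this same list, so its count, spacing, widths and scores are given as a description and carry no test. FAIRE-seq, which recovers the nucleosome-poor DNA that stays in the aqueous phase after formaldehyde crosslinking, was applied to freshly isolated, cultured cancer cells. Hyperglycemic cells (HyG) came from MMTV-PyMT/PANIC mice and euglycemic cells (Control) from MMTV-PyMT mice, all of the FVB strain background and all carrying MMTV-PyMT, the polyomavirus middle T oncogene under a promoter active in mammary epithelium. All cultures were grown in serum-supplemented medium with no treatment, and no age of the mice was stated in the labels. Each of the 2 conditions had 1 FAIRE library and 1 input DNA library, so 4 libraries were sequenced with no replicates, and the mouse line changed together with the glucose state. The peak list names none of them: no region below can be assigned to hyperglycemic or euglycemic cells, and the labelled cell type could not be compared with marker genes, because genes other than Parva and Tead1 were not placed on mm9.

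Parva encodes alpha-parvin, an adaptor protein that binds actin and, together with integrin-linked kinase and PINCH, forms the complex that couples integrins to the cytoskeleton at focal adhesions. Tead1 encodes a transcription factor with a TEA DNA-binding domain. It is a nuclear partner of the coactivators YAP and TAZ, which the Hippo kinase cascade holds back, and YAP and TAZ reach most of their target genes through TEAD proteins. Both arms sense cell attachment and mechanical tension and both have been studied in mammary tumours. In the RefSeq gene order of the GRCm38.p6 assembly, which was used for names and order only, 0 other protein-coding genes lay between Parva and Tead1. Entries that are not protein-coding did come between them in that order, which goes by start position: Gm45998, Parvaos, Gm24154 and Gm40451. Dkk3, Mical2 and Micalcl, in that order, preceded Parva, and Rassf10 followed Tead1. None of these other genes was placed on mm9, so regions before Parva, in it or between Parva and Tead1 may lie in or nearer to other genes.

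On mm9, Parva lies near 119.57 to 119.74 Mb and Tead1 near 119.82 to 120.05 Mb. These bounds are rounded to 0.01 Mb, so each distance from a gene end below can be off by about 5 kb, and overlap with an exon, an intron or a transcription start site could not be read from them. Both genes are known to be transcribed towards higher coordinates, so the lower bound is the 5′ side; the strand is background and was not read from the files. From low to high coordinates, 4 regions lay before Parva, 1 in Parva, 1 between the genes and 3 in Tead1, while the 50 kb from the end of Tead1 to the end of the window held 0. Per 100 kb this came to 0.702 regions before Parva (95% exact Poisson interval 0.191 to 1.80), 0.588 in Parva (0.015 to 3.28), 1.25 between the genes (0.032 to 6.97) and 1.30 in Tead1 (0.269 to 3.81). The intervals treat the counts as free to vary and take no account of the window having been picked for its count. The rates are a description with no test between stretches.

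The Tead1 span held the highest score of the window. Scores were assigned to each peak by the authors' caller and served here only to rank regions within the list. The region at 119840150 to 119841011, numbered 7 in order along the window, scored 116.44 and was 862 bp wide, with its midpoint 20.6 kb inside the 5′ end of Tead1. It ranked 15 of the 179 regions of chromosome 7 by score, and 93.6% of the whole list scored lower. It was the sole member at or above a score of 100, a level that 11.7% of the regions of chromosome 7 reached, and also the sole member at or above the upper quartile of the list's scores (81.04), which took in 25.1% of the regions of chromosome 7.

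The other regions of Tead1 scored close to the middle of the list. Region 8, at 119863260 to 119863882, was 623 bp wide, scored 68.16 and lay 43.6 kb inside the 5′ end. It was the nearest neighbour of region 7, with 22.2 kb between them, the shortest gap in the window. Region 9, at 119985334 to 119986012, was 679 bp wide, scored 70.59 and lay 64.3 kb before the 3′ end of Tead1. No region of the list lay in the last 64.0 kb of the gene. All 3 Tead1 regions were thus at or above the median score of the list, 64.42, as were 52.0% of the regions of chromosome 7.

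Parva itself held a single, low-scoring region. Region 5, at 119643224 to 119643862, was 639 bp wide and scored 52.39, close to the lowest score in the list (50.01), and 11.8% of the list scored lower. Its midpoint lay 73.5 kb inside the 5′ end of Parva and 96.5 kb from the other end as read from the rounded bounds. Neither gene had a region within 10 kb of its rounded 5′ end: the nearest to that of Tead1 were region 7 inside the gene and region 6 before it, and the nearest to that of Parva were regions 5 and 4.

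Region 6, at 119790773 to 119791418, lay between the genes, 51.1 kb past the 3′ end of Parva and 28.9 kb before the 5′ end of Tead1. It was 646 bp wide and scored 69.80, above the median of the list. With regions 7 and 8 it formed the tightest run of the window, with gaps of 48.7 and 22.2 kb. The next shortest gap, 57.1 kb, lay between regions 2 and 3.

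Before Parva, region 1 at 119119754 to 119120351 was 598 bp wide and scored 69.36, 449.9 kb from the 5′ end of the gene. Region 2 at 119287705 to 119288254, the narrowest member at 550 bp, had the lowest score of the window, 51.73, and lay 282.0 kb before Parva. Region 3 at 119345371 to 119346293 was the widest member, 923 bp, yet scored 57.20, and lay 224.2 kb before Parva. Region 4 at 119472301 to 119472882, 582 bp wide and scoring 55.15, was the nearest of them to Parva at 97.4 kb. Regions 2 to 5, from the stretch before Parva into Parva, all scored below the list's median, and the other 5 members scored above it. Those 5 of 9 stand beside 52.0% of the regions of chromosome 7 at or above that median, so the members as a whole were not set off from the chromosome by score.

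**Figure D1:**
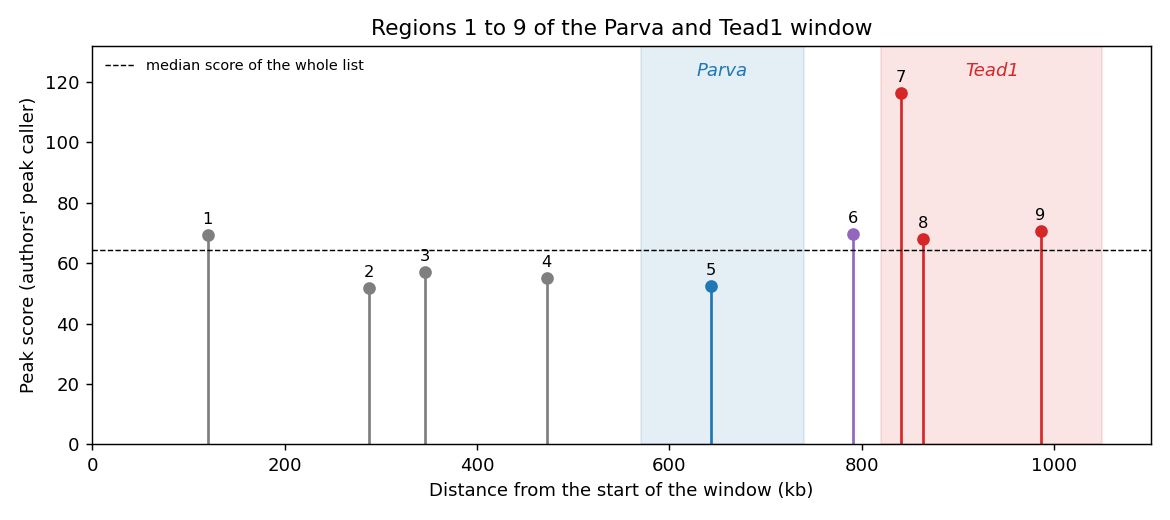
Score of each region (vertical axis, the authors' peak caller) against its distance from the start of the window in kb (horizontal axis), with the rounded spans of Parva and Tead1 shaded and the median score of the list (64.42) dashed. Region 7 in Tead1 stands at 116.44, and regions 2 to 5 fall below the dashed line.

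The median width of the members was 639 bp (95% order-statistic interval of the median 582 to 862 bp, 9 regions, range 550 to 923 bp), whereas the 170 other regions of chromosome 7 had a median of 742 bp (718 to 798 bp) and quartiles of 631.5 and 904 bp. The intervals overlap, but the members' median lay below the interval of the others, though within their quartiles. The difference was not tested. Of the 9 members, 7 were narrower than the list's median of 779 bp, against 56.4% of the regions of chromosome 7. Regions 3 and 7 were the exceptions. Median scores were close, 68.16 in the members (52.39 to 70.59) and 65.07 in the others (61.13 to 71.37). The narrowest member (region 2) had the lowest score and the second widest (region 7) the highest, whereas the widest (region 3) scored 57.20 and ranked 129 by score on the chromosome.

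**Figure D2:**
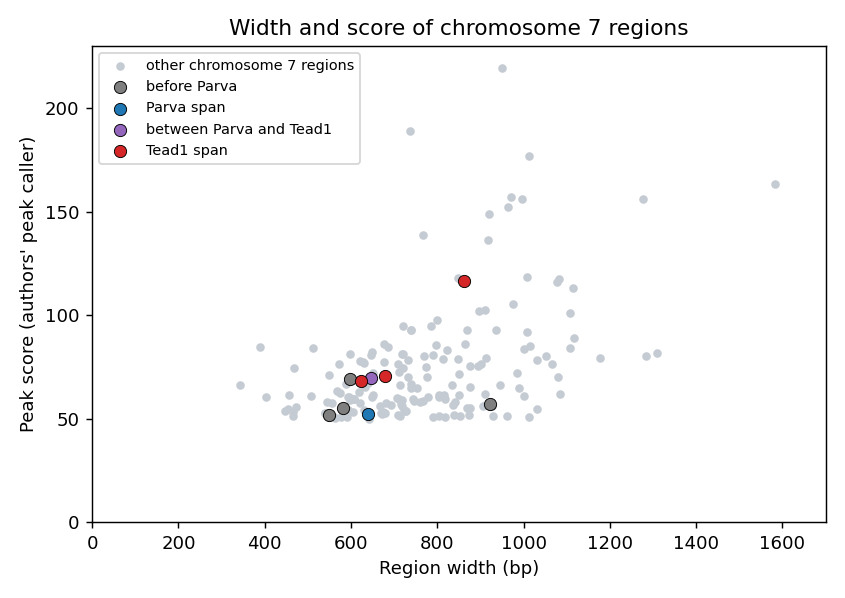
Score (vertical axis, the authors' peak caller) against width in bp (horizontal axis) of all 179 regions of chromosome 7, each a point, with the members coloured by their place relative to Parva and Tead1. Of the members, 7 lie between 550 and 679 bp, and regions 3 (923 bp) and 7 (862 bp) lie to their right.

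The 8 gaps between neighbouring members ran from 22.2 to 170.3 kb with a median of 123.7 kb, and the 9 regions stretched over 866.3 kb from the first to the last. Among the 178 gaps of chromosome 7 as a whole the median was 277.2 kb, 17 gaps (9.6%) were shorter than the shortest member gap, and 102 (57.3%) were longer than the longest. Of the 9 members, 0 had another region within 10 kb, where 14.5% of the regions of chromosome 7 did. Within 100 kb, 5 of 9 had a neighbour, against 50.3% on the chromosome. All 8 gaps were shorter than the chromosome's median gap, and none was shorter than 22.2 kb. Gaps below that median largely follow from the window having been picked for its count, so they are not a finding. The run was bounded by long empty stretches on both sides. The last region before the window, at 118510366 to 118511432 (1067 bp, score 76.61), was separated from region 1 by 608.3 kb, and the first after it, at 121315024 to 121315934 (911 bp, score 102.44), from region 9 by 1329 kb. Longer gaps than these were not rare on chromosome 7, with 59 and 30 of 178.

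Chromosome 7 was divided end to end into 135 windows of 1.1 Mb, aligned to the Parva and Tead1 window and lying between the chromosome's outermost regions. The windows held 1.28 regions on average with a median of 1, and 62 (45.9%) held none. A count of at least 9 was met by 0.741% of the windows, which is the Parva and Tead1 window alone. Since the window was picked for its count, that rank is not a finding. The window from 77200001 to 78300000 followed with 8 regions, and that from 28800001 to 29900000 with 7. The window just before Parva and Tead1 held 4 regions and that just after held 0. When the same length was moved along the chromosome in steps of 100 kb, 3 of 1483 placements held 9 regions, and all 3 overlapped the Parva and Tead1 window. Across the autosomes, 8 of 2128 windows aligned in the same way held at least 9 regions and 1 held more. That rank depended on where the windows were placed, as the counts in windows of 1 Mb below show.

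**Figure D3:**
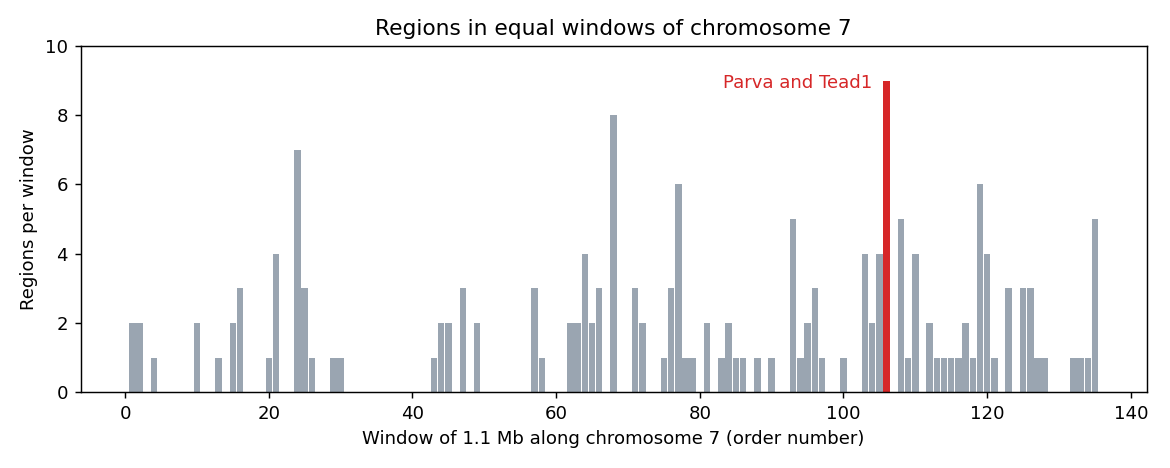
Number of regions (vertical axis) in each of the 135 windows of 1.1 Mb of chromosome 7, in order along the chromosome (horizontal axis). The red bar is the Parva and Tead1 window with 9 regions, and the next highest bar reaches 8.

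The regions covered 6102 bp, or 0.555% of the window. Regions covered 0.092% of chromosome 7 between its outermost regions, but the window's share depends on the count for which it was picked. By covered sequence the Parva and Tead1 window ranked 2 of the 135 windows, behind the 6306 bp of the window with 8 regions. In 14 windows of chromosome 7 with at least 4 regions, the median width ranged from 543.5 to 998.5 bp, and that of the Parva and Tead1 window was at rank 2 from the lowest. The median score in these 14 ranged from 54.04 to 79.10, with the Parva and Tead1 window at rank 9 from the lowest. In 7 of the 14, the Parva and Tead1 window included, no region had a neighbour within 10 kb. The rest of those 7 were sparser, with 4 to 6 regions each. The windows nearest in count, with 8 and 7 regions, had 4 and 2 regions with a neighbour that near. With scores limited to those at or above the upper quartile of the list, the window kept region 7 alone, and 9 windows of chromosome 7 held more.

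Windows of 1 Mb with at least 9 regions on a fixed grid of the autosomes numbered 6, this locus included. The others held 15 regions on chromosome 5, 11 on chromosome 13, 10 and 9 on chromosome 15 and 9 on chromosome 10, so 3 held more than the 9 at Parva and Tead1. In these 5, between 2 and 12 regions had another within 10 kb, their shortest gaps ran from 0.17 to 6.63 kb and their median gaps from 14.2 to 71.3 kb. At Parva and Tead1 the shortest gap was 22.2 kb and the median gap 123.7 kb, both above all 5. Their median widths of 801 to 997 bp and highest scores of 124.27 to 162.07 were above the 639 bp and 116.44 of the Parva and Tead1 regions, and so was the sequence covered, 7027 to 16589 bp against 6102 bp. The median score of 68.16 lay above the 65.77 of the chromosome 15 window with 10 regions. It lay below the 74.46 to 92.22 of the rest. These differences were not tested, since all 6 windows were selected by counts from one list.

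**Figure D4:**
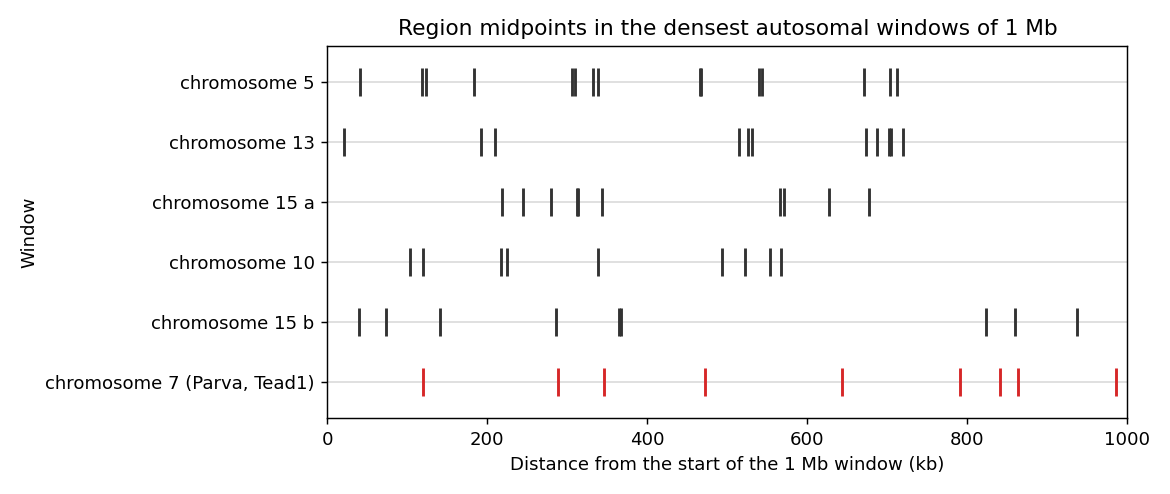
Midpoints of regions (ticks) in the 6 autosomal windows of 1 Mb with at least 9 regions, by distance from the start of each window in kb (horizontal axis), 1 row per window. The Parva and Tead1 row, in red, has no pair closer than 22.2 kb, whereas the shortest gap of the other rows is at most 6.63 kb.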

How the data were processed

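FAIRE DNA and matched input DNA were read single-end by SOLiD sequencing, per the labels' design text. The submitters' processing notes name MACS as the authors' peak caller and mm9 as the build. Not given in the sources used here: aligner, caller settings, control library and pooling. A region may therefore mark open chromatin against input or a difference between conditions. The deposited score per peak has no stated scale, and depth is unknown. No mm9 sequence or annotation was used, and the spans of Parva and Tead1 were taken as given with the definition of the window.

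Starts were converted to count from 1. Widths, gaps between neighbours, distances from midpoints and counts in windows by midpoint were computed with pandas 2.3.3, numpy 2.4.6 and scipy 1.17.1 (Python 3.11.15), and plotted with matplotlib 3.10.9. Counting functions were tested on simulated data. The members, windows and lists were chosen with earlier results of these data known, and every member is described. The ILK-PINCH-parvin, Hippo pathway and cell type marker genes were not analysed here, since they were not placed on mm9. Of the 2 gene names, 2 matched the GRCm38.p6 table.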

Additional observations from a re-analysis of the deposited data

How the results depend on the processing

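No paired analysis was possible because the deposited list is tied to no single library and each kind of library was made once per condition. Merging regions within 1 or 10 kb could not join members, whose shortest gap was 22.2 kb, and the window's rank on chromosome 7 stayed 1. Of the other 43 alternative values, 27 were counted as close to those reported. A median counted as close if it lay within the 95% order-statistic interval of the reported median, and other values if within a fixed ratio. The criterion for medians was loose. A median width of 862 bp, from region 7 alone, counted as close to 639 bp. So did a median gap of 85.1 kb, at or above the median score, to 123.7 kb. At or above the median score 5 regions were left: 1 before Parva, 0 in Parva, 1 between the genes and 3 in Tead1. They covered 0.310% of the window. At or above the upper quartile of scores 1 region was left, in Tead1, with a score of 116.44, 0 in Parva, 0 between the genes, 0 outside them, 0.078% covered and a rank of 10 on chromosome 7. A gap could not be given there. Among all autosomes the window ranked 2 in aligned windows of 1.1 Mb, whereas on a grid of 1 Mb windows 3 held more regions. Gene spans extended by 50 kb on each side covered the whole 80 kb between the genes, so a count of 0 there was fixed in advance. Region 6 then went to Tead1, which made 4 there. It lay 51.1 kb past Parva, so within the rounding of the bounds it could as well have gone to Parva. Widening the window by 500 kb on each side lowered the covered share to 0.341%. Raising the neighbour distance from 10 to 100 kb gave 5 regions with a neighbour in place of 0. Unknown depth and the caller's threshold limit the list: regions scoring under 50.01 are not in it.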
